A study of Rattus norvegicus with 12 samples.

Results

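The transcripts described here encode the nuclear subunits of the 5 oxidative phosphorylation complexes. They were chosen by gene symbol: symbols starting with Ndufa, Ndufb, Ndufc, Ndufs, Ndufv, Uqcr, Cox4, Cox5, Cox6, Cox7, Cox8 or Atp5, together with Sdha, Sdhb, Sdhc, Sdhd and Cyc1, and without the Ndufaf assembly factors. The rule found 67 genes on 71 probes, out of 12758 genes named by 1 symbol, and each gene was represented by its probe with the highest mean level. Complex I had 27 genes, complex II 3, complex III 8, complex IV 15 and complex V, the ATP synthase, 14. No probe matched Sdha, Cox6b1 or Cox7a1, which are not analysed here. Of the genes that the symbols bring in, 2 are not subunits of a complex: Cox6c-ps1 is a pseudogene and Cox7a2l is a factor that helps join complexes III and IV. Probes of 4 members (Atp5me, Cox4i2, Cox5b and Ndufs6) are listed with another symbol too and were named through their accession, or for Ndufs6 through the description, so they may also read that other transcript.

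RNA came from whole kidneys of male Fisher F344 rats, an inbred strain, and each array measured 1 sample in 1 colour. The aged CR group was 24 months old and calorie restricted, by 10% from 10 weeks of age, by 25% from 15 weeks and by 40% from 4 months. The aged AL group was 24 months old and fed ad libitum, and the young group was 4 months old and fed ad libitum. Each group had 4 arrays, which the labels call biological replicates. Whether each array came from a separate animal could not be checked. No drug treatment or genetic change was given, and the rats were anaesthetised with ketamine and xylazine before the kidneys were removed.

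Complex I passes electrons from NADH to ubiquinone, complex II does so from succinate, complex III passes them on to cytochrome c, complex IV passes them to oxygen, and complex V uses the resulting proton gradient to make ATP. Kidney tubules, above all the proximal tubule and the thick ascending limb, are packed with mitochondria that power sodium transport. Most subunits are encoded in the nucleus, and several of complex IV exist as isoforms made mainly in one tissue, such as heart and skeletal muscle, lung or testis.

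Arrays of a group that differed by no more than repeat spots of 1 array were joined, also through an array between them, and counted as 1 sample. Aged AL arrays 1 and 4 differed slightly more (SD 0.125 against a limit of 0.122) and were joined only through arrays 2 and 3. That left 5 samples, fewer than the labels give, and the choice rests on the likeness of the arrays alone. The 2 aged CR samples joined arrays 1 with 3 and 2 with 4, the only aged AL sample held all 4 of its arrays, and the 2 young samples joined arrays 1 with 2 and 3 with 4. The lone aged AL sample was assumed to vary like the others. Levels and differences below are log2 values of the quantile-normalised intensity, so that a difference of 1 stands for a ratio of 2. Levels of different probes cannot be compared. A standard error (SE) comes from the limma fit over 5 samples, and a test passed at an adjusted p under 0.05. In data simulated for aged AL against young kidney this fit missed the changes put in. The other comparisons were not simulated. In any comparison, a transcript that did not pass is not shown to be unchanged. The fit over 12 arrays, which counts arrays of 1 sample separately, is given beside it, and its p-values measure the spread between arrays only. Between 72.8% and 75.7% of gene probes were above background on the aged CR arrays, 72.5% to 74.0% on the aged AL arrays and 64.4% to 71.4% on the young arrays. All aged AL arrays were scanned apart from the others and no slide series held both aged AL and young arrays, so scan, series and age cannot be told apart there. All aged CR arrays were in the other scan, so scan and diet cannot be told apart between the aged groups either. In whole tissue, fewer cells of a type and less RNA per cell cannot be told apart.

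The subunits were among the brightest probes. Mean levels ran from 6.72 for Cox8b to 14.82 for Atp5f1b, the catalytic beta subunit of the ATP synthase, with a median of 12.88. Of the 66 members tested, 50 were among the brightest 10% of all tested probes and 58 were above background on all 12 arrays. Cox8c, a testis isoform of complex IV, was not above background on any array and was not tested. A total of 9 values of 8 members came from spots that the scanner software marked as unreliable and were left out.

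Upstream sequences of 3 members that stand at the ends of the comparisons below are shown, as the 250 bases before the annotated start on the gene's strand (RefSeq, build GRCr8). Atp5mc2, a ring subunit of the ATP synthase, had the highest difference between aged CR and young kidney and lies at chr7:135678219-135678468 on the minus strand. Atp5f1e, its epsilon subunit, had the highest difference between the diets and lies at chr3:183680173-183680422 on the minus strand. Cox8b, the muscle isoform of complex IV subunit VIII, had the lowest difference from young kidney and lies at chr1:205408274-205408523 on the minus strand. Capitals mark a match, on either strand, to 1 of 3 motifs: the palindrome bound by the respiratory factor NRF1, spelled by the 10 capitals in the Atp5mc2 line, CCGGAAG, the core bound by ETS factors such as GABP, and the TATA motif TATAAA.
Atp5mc2: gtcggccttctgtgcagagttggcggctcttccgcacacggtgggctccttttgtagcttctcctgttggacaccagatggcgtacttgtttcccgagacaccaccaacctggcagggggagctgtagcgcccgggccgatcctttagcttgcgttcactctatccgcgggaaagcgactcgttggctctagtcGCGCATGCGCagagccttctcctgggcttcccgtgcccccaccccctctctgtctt
Atp5f1e: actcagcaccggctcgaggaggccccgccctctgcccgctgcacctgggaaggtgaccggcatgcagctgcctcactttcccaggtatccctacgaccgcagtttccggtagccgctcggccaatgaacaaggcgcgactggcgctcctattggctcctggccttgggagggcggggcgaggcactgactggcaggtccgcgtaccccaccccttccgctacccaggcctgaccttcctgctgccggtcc
Cox8b: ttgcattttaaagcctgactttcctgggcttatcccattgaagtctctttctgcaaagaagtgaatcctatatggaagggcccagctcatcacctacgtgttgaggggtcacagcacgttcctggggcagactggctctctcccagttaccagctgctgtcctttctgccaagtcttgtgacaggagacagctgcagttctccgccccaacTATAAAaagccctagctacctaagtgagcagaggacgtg
Atp5mc2 held the NRF1 motif 56 to 47 bases before its start, Cox8b held a TATA motif 39 to 34 bases before it, and Atp5f1e held none of the 3. Promoter entries matched 58 of the 67 members. The NRF1 motif was in 3 of them (5.17%: Atp5mc2, Atp5me and Atp5po), against 0.762% of all 33469 promoters. The ETS core was in 17 (29.3%), against 7.27% of all promoters, and the TATA motif in 3 (5.17%: Cox8b, Ndufa2 and Ndufs6), against 12.9%. A match describes these letters only.

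The first comparison asked how aged AL kidney differed from young kidney. Under quantile normalisation the 66 subunits tested had a median difference of -0.08, against -0.05 over all 25398 probes tested. Under array median scaling the median was -0.60, with 59 of 66 below 0, against -0.21 over all probes. None passed in the fit over 5 samples, where 0.114% of all probes did. Some passed with a young sample left out, which leaves 1 young sample in the fit. At an unadjusted p under 0.05 there was 1 member, Cox8b, against 17.1% of all probes. In the fit over 12 arrays 6 members were higher and 18 lower in aged AL kidney (9.09% and 27.3% of the members), against 20.9% higher and 27.1% lower of all probes. A difference beyond 0.5 in either direction was found for 6 members (9.09%) and for 34.7% of all probes. Other scalings are described further below.

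By complex, the median difference between aged AL and young kidney was -0.13 in complex I, with 20 of 27 members below 0, -0.02 in complex II, -0.14 in complex III, -0.04 in complex IV and 0.09 in complex V, with 5 of 14 members below 0. The medians under array median scaling were -0.63 in complex I, with 26 of 27 members below 0, -0.65 in complex II, -0.62 in complex III, -0.56 in complex IV and -0.46 in complex V, with 12 of 14 below 0.

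**Figure D1:**
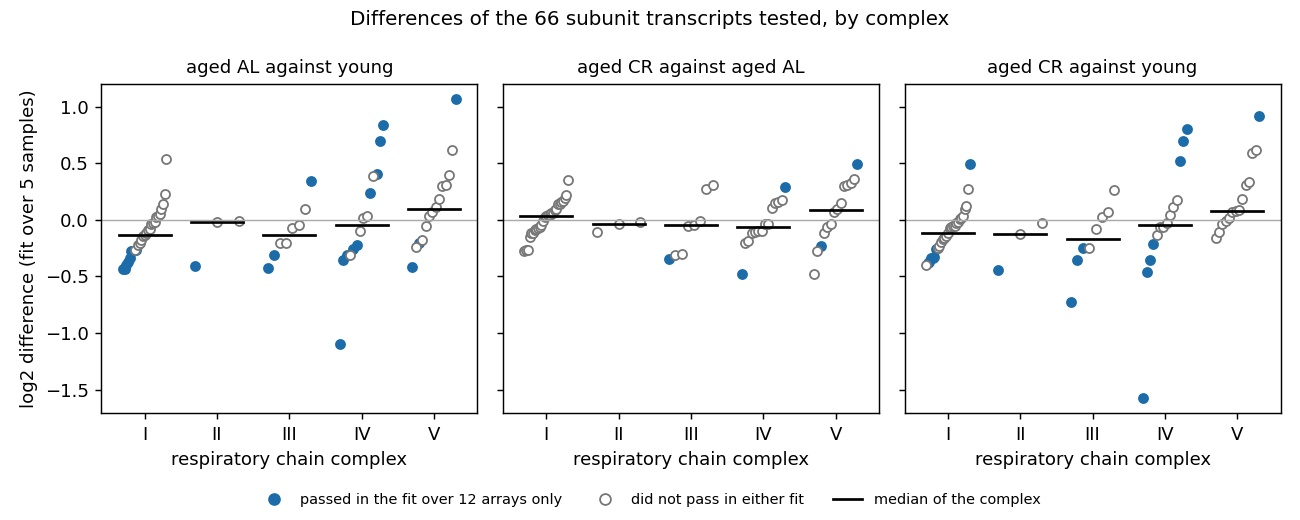
Log2 difference of each of the 66 subunit transcripts tested in the 3 comparisons (quantile-normalised levels), 1 point per gene, grouped by complex, with a bar at the median of the complex. Filled points passed in the fit over 12 arrays, and none passed in the fit over 5 samples. Most points lie within 0.5 of 0, and against young kidney the extremes are Cox8b at the bottom and members of complexes IV and V at the top. The medians of complex V, above 0 here, turn below 0 under array median scaling.

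The highest members between aged AL and young kidney were set by 1 of the 2 young samples. Atp5pb, a subunit of the stalk that holds the ATP synthase together, had levels of 12.49, 12.37, 12.37 and 12.18 on the aged AL arrays, against 10.41, 10.44, 12.12 and 12.15 on the young arrays. Its difference was 1.07 (SE 0.71, adjusted p = 0.47, limma over 5 samples, and 0.033 over 12 arrays), made up of 1.92 against young arrays 1 and 2 and 0.22 against young arrays 3 and 4. Cox4i1, the isoform of complex IV subunit IV found in most tissues, had 12.99, 12.81, 12.90 and 12.88 on the aged AL arrays and 11.47, 11.50, 12.59 and 12.68 on the young arrays. The difference of Cox4i1 was 0.84 (SE 0.50, adjusted p = 0.436, and 0.018 over 12 arrays), which is 1.41 against young arrays 1 and 2 and 0.26 against young arrays 3 and 4. In both genes all aged AL arrays lay above all young arrays, while the 2 young samples stood further apart than young arrays 3 and 4 stood from the aged AL arrays.

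Cox5a, another complex IV subunit, repeated this: its levels were 13.07, 12.96, 13.05 and 13.05 on the aged AL arrays and 12.02, 11.82, 12.73 and 12.77 on the young arrays, a difference of 0.70 (SE 0.38). Atp5mc2 had 12.48, 12.31, 12.24 and 12.22 on the aged AL arrays against 11.05, 10.93, 12.32 and 12.50 on the young arrays. Its difference was 0.61 (SE 0.60), but -0.10 against young arrays 3 and 4 alone. Ndufv3, a complex I subunit next to the NADH site, stood at 0.54 (SE 0.49), and at -0.02 against young arrays 3 and 4 alone. The aged AL and young arrays of Atp5mc2 and of Ndufv3 overlapped. Under array median scaling the differences of these 5 genes were 0.67 for Atp5pb, 0.33 for Cox4i1, 0.15 for Cox5a, 0.17 for Atp5mc2 and 0.32 for Ndufv3.

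**Figure D2:**
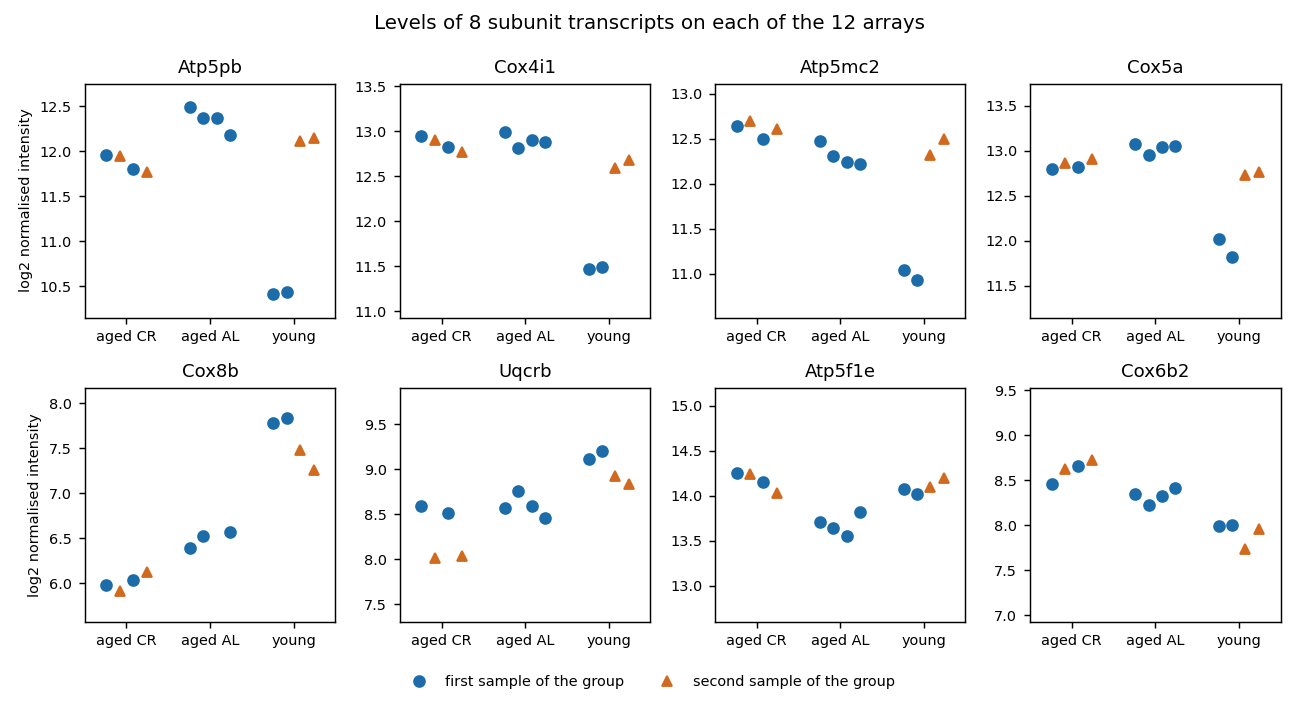
Level (log2 quantile-normalised intensity) of 8 subunit transcripts on each array of the aged CR, aged AL and young groups. Circles and triangles are the first and the second sample of a group after joining. For Atp5pb, Cox4i1, Atp5mc2 and Cox5a the young circles (arrays 1 and 2) lie well below every other array, for Cox8b the aged arrays lie below the young ones, and for Atp5f1e the aged AL arrays are the lowest.

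The gap between the 2 young samples ran through the members unevenly. Levels on young arrays 1 and 2 minus those on young arrays 3 and 4 ran from -1.71 for Atp5pb to 0.79 for Cox6c, a small complex IV subunit, with a median of -0.12 against 0.06 over all probes tested. The gap was -1.42 for Atp5mc2, -1.31 for Atp5f1d, the delta subunit of the ATP synthase, -1.15 for Cox4i1, -1.11 for Ndufv3, -0.83 for Cox5a, -0.72 for Atp5po and -0.70 for Atp5mf. In all, 12 of 66 members (18.2%) were lower by 0.5 or more on young arrays 1 and 2, against 17.4% of all probes, and 2 (3.03%) were higher by as much, against 14.5% of all probes. The aged CR samples, by comparison, differed by 0.5 or more in 2 members (3.03%) and in 3.69% of all probes.

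The kind of sequence record behind a probe moved with that gap. Of members on RefSeq transcript probes 7 of 25 were lower by 0.5 or more on young arrays 1 and 2, against 1 of 33 on 3-prime EST probes. Records of this last kind are short reads from the end of a transcript. The kind was read from the record's name and the wording of the probe's description, so single records can be misplaced. The remaining 8 members divided into 1 of 4 on 5-prime ESTs and 3 of 4 on other records. Over all tested probes the shares were 24.1% for RefSeq transcripts, 12.1% for 3-prime ESTs, 28.4% for 5-prime ESTs and 22.9% for other records. The part of the record, and of where on the transcript a probe lies, in these differences was not tested. A second probe of Atp5f1b read 6.22 and 6.04 on young arrays 1 and 2, against 9.01 on young array 3, and gave a difference of 1.87 between aged AL and young kidney (SE 1.20). Its brighter probe, from the same record, was saturated on 11 arrays and bears on no such difference. Young arrays 1 and 2 also had the lowest array medians of the study, 74.5 and 80.6 intensity units, against 94.8 and 117 on young arrays 3 and 4.

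**Figure D3:**
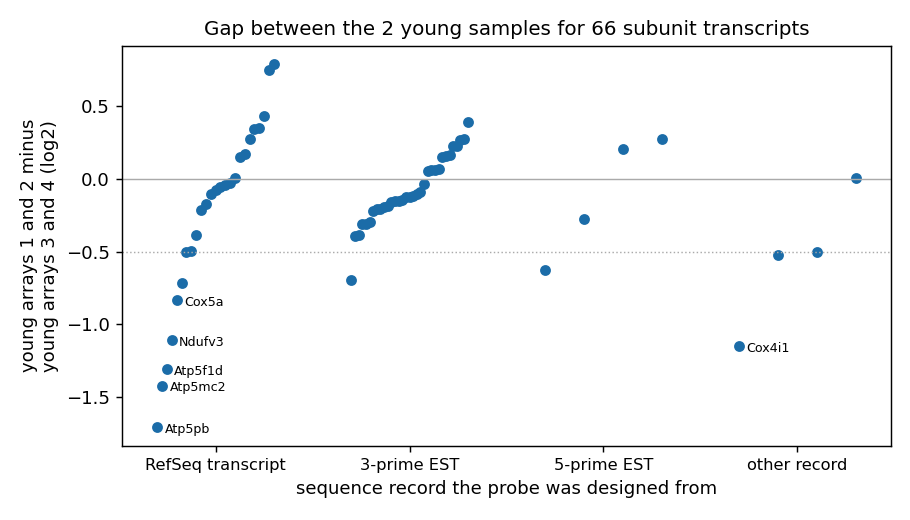
Level on young arrays 1 and 2 minus the level on young arrays 3 and 4 (log2) for the 66 subunit transcripts tested, 1 point per gene, grouped by the kind of sequence record its probe came from. The dotted line marks -0.5. Below it lie 7 of 25 members on RefSeq transcript probes and 1 of 33 on 3-prime EST probes.

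Toward the other end, Cox8b was lower in aged kidney by any pairing of the arrays. Cox8b, the isoform of heart, skeletal muscle and brown fat, had 5.98, 5.91, 6.03 and 6.13 on the aged CR arrays, 6.39, 6.52 and 6.57 on the 3 aged AL arrays with a usable spot, and 7.78, 7.83, 7.48 and 7.26 on the young arrays. The 3 groups did not overlap. Aged AL kidney stood at -1.09 against young (SE 0.26, adjusted p = 0.171, and 0.000115 over 12 arrays), and at -0.88 against young arrays 3 and 4 alone. Aged CR kidney stood at -1.57 against young (SE 0.21, adjusted p = 0.0567, and 6.2e-06 over 12 arrays), with an interval (95%) of -2.13 to -1.02. Its differences under array median scaling were -1.09 and -1.61. Restricted kidney stood 0.48 below aged AL kidney (SE 0.26, adjusted p = 1 over 5 samples and 0.0401 over 12 arrays).

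Markers of cells that make Cox8b were measured alongside. Of 10 skeletal and heart muscle markers 8 had a probe, and Actn3, Mb and Myh4 were not above background on any array. Summed over the 6 with a value on every array, they reached 1173 to 1420 intensity units in aged CR kidney, 1132 to 1366 in aged AL kidney and 1123 to 1368 in young kidney. The 5 muscle markers tested had a median of 0.47 in aged AL against young kidney and 0.29 in aged CR against young kidney, each with 3 higher and 1 lower over 12 arrays. The adipocyte and brown fat markers summed, over 6 of 7, to 1865 to 1978 in aged CR kidney, 2205 to 2390 in aged AL kidney and 4747 to 6733 in young kidney. Plin1, the coat protein of fat droplets, was not above background on any array. Ucp1, the brown fat uncoupling protein, stood at -0.35 in aged AL against young kidney and at -0.40 in aged CR against young kidney, and did not pass. Cidec, a fat droplet protein, was the brightest of them, with 10.62 and 10.58 in the 2 aged CR samples, 10.78 in the aged AL sample and 12.62 and 12.09 in the 2 young samples. The high young sum is mostly Cidec. The 6 fat markers tested had a median of 0.19 in aged AL against young kidney, with 2 higher and 2 lower over 12 arrays, and of 0.01 in aged CR against young kidney. Their part in the Cox8b difference was not tested.

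Besides Cox8b, 4 members had the lowest differences between aged AL and young kidney. They were picked by that rank, and in each all aged AL arrays lay below all young arrays. The share of all probes whose arrays separate in this way is not given, here or elsewhere. Ndufs5, an accessory complex I subunit, had 13.22, 12.96, 13.11 and 13.24 on the aged AL arrays against 13.55, 13.66, 13.46 and 13.63 on the young arrays, a difference of -0.44 (SE 0.21, adjusted p = 0.364, and 0.00428 over 12 arrays). Ndufb11, also an accessory subunit of complex I, stood at -0.43 (SE 0.21), with 13.64 to 13.78 on the aged AL arrays and 13.99 to 14.35 on the young arrays. Uqcrb, a complex III subunit beside the ubiquinone site, stood at -0.42 (SE 0.30), with 8.46 to 8.75 on the aged AL arrays and 8.84 to 9.20 on the young arrays. Atp5f1e stood at -0.42 (SE 0.20), with 13.55 to 13.82 on the aged AL arrays and 14.02 to 14.20 on the young arrays. None of these 4 passed over 5 samples, and all 4 passed over 12 arrays. The gap between the young samples was small in them, between -0.10 for Atp5f1e and 0.28 for Uqcrb, and aged AL kidney was lower against each young sample alone. Array median scaling gave -1.04 for Ndufs5, -1.06 for Ndufb11, -0.60 for Uqcrb and -1.06 for Atp5f1e.

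The other members called over 12 arrays between aged AL and young kidney were as follows. Higher in aged AL kidney were Uqcrfs1, Cox6b2 and the supercomplex factor Cox7a2l, beside Cox4i1, Cox5a and Atp5pb. Of these 6, Cox6b2 alone was called higher under array median scaling, Uqcrfs1 turned to -0.21 and Cox7a2l to -0.22, and Cox4i1, Cox5a and Atp5pb were not called (adjusted p = 0.11, 0.26 and 0.077 in limma over 12 arrays). Lower under quantile normalisation were the complex I subunits Ndufa3, Ndufa9, Ndufb7, Ndufb8, Ndufs3 and Ndufs8, the complex II anchor Sdhc, cytochrome c1 (Cyc1), the complex IV subunits Cox4i2, Cox5b, Cox6a1 and Cox8a, and Atp5mc3 of the ATP synthase ring. No complex I subunit was called higher

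Between the diets, at 24 months, the question was what restriction did to the subunits. Differences were small: the median was -0.03 against 0.01 over all probes, and no member differed by more than 0.5, against 12.2% of all probes. None passed over 5 samples, where 0% of all probes did, and at an unadjusted p under 0.05 there were 0 members and 4.75% of all probes. Over 12 arrays Atp5f1e and Cox6b2 were higher and Uqcrc2, Cox8b and Atp5f1b lower in aged CR kidney. That is 3.03% and 4.55% of the members, against 7.39% and 5.98% of all probes. The Atp5f1b probe was saturated on 11 arrays, and the second probe of the gene stood at -0.06 between the diets (SE 1.20). Slide series 1, which held aged AL arrays and aged CR arrays 3 and 4, gave a median of 0.001 by itself, with 33 members above 0 and 33 below.

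Atp5f1e, whose protein sits at the foot of the rotating stalk of the ATP synthase, had the highest difference between the diets. Its levels were 14.25, 14.24, 14.15 and 14.03 on the aged CR arrays, 13.70, 13.64, 13.55 and 13.82 on the aged AL arrays and 14.07, 14.02, 14.10 and 14.20 on the young arrays. The aged CR and aged AL arrays did not overlap, and the aged CR and young arrays did. The difference was 0.49 against aged AL kidney (SE 0.20, adjusted p = 1, and 0.0024 over 12 arrays), with an interval (95%) of -0.03 to 1.0. Against young kidney aged CR kidney stood at 0.07 (SE 0.16). Both contrasts of aged AL kidney use the same arrays, so its lower level counts in each. Array median scaling gave 0.20 between aged CR and aged AL kidney, which was not called over 12 arrays (adjusted p = 0.435, limma), -1.06 between aged AL and young and -0.86 between aged CR and young kidney, so the last of these turned sign.

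The 14 ATP synthase subunits lay on both sides of 0 between the diets, with 8 above and 6 below. Atp5mf and Atp5me, small subunits of its membrane part, stood at 0.36 (SE 0.34) and 0.32 (SE 0.24), and Atp5f1d stood at 0.31 (SE 0.56). Ndufs6, a zinc-binding complex I subunit, stood at 0.35 (SE 0.28), with 9.25 to 10.11 on the aged CR arrays and 9.17 to 9.58 on the aged AL arrays, which overlapped. None of these passed in either fit. Cox6b2, the testis isoform of complex IV subunit VIb, had 8.46, 8.63, 8.66 and 8.72 on the aged CR arrays, 8.35, 8.22, 8.32 and 8.41 on the aged AL arrays and 7.99, 8.0, 7.73 and 7.95 on the young arrays. Its difference between the diets was 0.29 (SE 0.20, adjusted p = 1, and 0.043 over 12 arrays). The groups formed 3 separate bands, in the order aged CR, aged AL, young.

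The 5 lowest members between the diets were Atp5pb, Cox8b and the complex III subunits Uqcrc2, Uqcrfs1 and Uqcrb. Uqcrc2, a core protein, had 12.68, 12.56, 12.54 and 12.36 on the aged CR arrays and 12.90, 12.78, 13.04 and 12.80 on the aged AL arrays, a difference of -0.35 (SE 0.21, adjusted p = 1, and 0.0341 over 12 arrays). Uqcrfs1, the Rieske iron-sulfur protein, had 12.45 to 12.59 on the aged CR arrays and 12.73 to 12.93 on the aged AL arrays, a difference of -0.31 (SE 0.23). Uqcrb, at -0.30 (SE 0.30), differed between the aged CR samples: it read 8.59 and 8.51 on aged CR arrays 1 and 3 and 8.01 and 8.04 on aged CR arrays 2 and 4. Atp5pb stood at -0.48 (SE 0.71), and its SE also holds the spread between the young samples. Aged CR and aged AL arrays did not overlap for Uqcrc2, Uqcrfs1 or Atp5pb. Array median scaling kept the sign of each of the 10 members with the highest or lowest difference between the diets.

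Markers of the tubule segments also differed between the diets. Proximal tubule markers, summed over 10 of 12, reached 53798 to 59327 intensity units in aged CR kidney, 73800 to 75271 in aged AL kidney and 56052 to 69811 in young kidney. Markers of the thick limb and distal tubule, over 9, reached 61829 to 65819 in aged CR kidney, 44145 to 48555 in aged AL kidney and 47271 to 57495 in young kidney. None of these markers passed over 5 samples between the diets, while over 12 arrays 3 of 12 proximal markers were lower and 4 of 9 distal markers higher in aged CR kidney, against 5.98% lower and 7.39% higher of all probes. Their part in the subunit differences was not tested.

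The third comparison set aged CR kidney against young kidney, which shared a scan. The median difference was -0.05 against -0.02 over all probes. None of the 66 members passed over 5 samples, where 0.89% of all probes did. Cox8b passed there with 75th percentile scaling, with an offset of 50 and without young array 4, and Cox6b2 passed without scaling. Unscaled, Cox6b2 stood at 1.35, where the median of all probes was 0.49. The shares of all probes that passed in these alternative fits are not given. More members passed with a young sample left out, which leaves 1 young sample in the fit, so those calls are not counted here. Under quantile normalisation 3 members (Cox8b, Uqcrb and Cox6b2) had an unadjusted p under 0.05, against 23.3% of all probes. Over 12 arrays 5 members were higher and 14 lower in aged CR kidney (7.58% and 21.2%), against 19.7% and 24.6% of all probes. The 14 were Ndufa6, Ndufa9, Ndufb7, Ndufb11, Ndufs3, Ndufv1, Sdhc, Cyc1, Uqcr11, Uqcrb, Cox4i2, Cox5b, Cox6a1 and Cox8b, and the 5 were Ndufs6, Cox4i1, Cox5a, Cox6b2 and Atp5mc2. Differences beyond 0.5 were found for 8 members (12.1%) and 33.2% of all probes. Within slide series 2, which held young arrays and aged CR arrays 1 and 2, the median was -0.02. This comparison shares its young arrays with the first and its aged CR arrays with the second, so their values are not independent.

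The members at the top again had a gap between the young samples. Atp5mc2 had 12.65, 12.70, 12.50 and 12.61 on the aged CR arrays and, as above, 11.05, 10.93, 12.32 and 12.50 on the young arrays, a difference of 0.92 (SE 0.49, adjusted p = 0.322, and 0.0327 over 12 arrays). It was 1.63 against young arrays 1 and 2 and 0.20 against young arrays 3 and 4. Cox4i1 stood at 0.80 (SE 0.41), with 12.77 to 12.95 on the aged CR arrays, and at 0.23 against young arrays 3 and 4 alone. Atp5f1d stood at 0.62 (SE 0.46) and Atp5pb at 0.59 (SE 0.58), but against young arrays 3 and 4 alone Atp5f1d was at -0.03 and Atp5pb at -0.27. Under array median scaling Atp5mc2 was at 0.28, Cox4i1 at 0.10, Atp5f1d at 0.15 and Atp5pb at 0.03.

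Cox6b2 was the exception among the high members. Its difference was 0.70 (SE 0.17, adjusted p = 0.115, and 7.14e-05 over 12 arrays), with an interval (95%) of 0.26 to 1.14, and it was 0.62 against young arrays 1 and 2 and 0.77 against young arrays 3 and 4. Array median scaling gave 0.62. Testis and sperm markers, summed over 4 of 5, reached 930 to 1065 intensity units in aged CR kidney, 1002 to 1134 in aged AL kidney and 1351 to 1478 in young kidney, and Prm1 was not above background on any array. Of the 4 tested, Ldhc, the testis lactate dehydrogenase, was the 1 marker called over 12 arrays, at -2.66 in aged AL and -2.25 in aged CR against young kidney, and the median of the 4 in aged CR against young kidney was -0.11. Their part in the Cox6b2 difference was not tested.

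Below Cox8b, the lowest members against young kidney came from 4 complexes. Uqcrb stood at -0.73 (SE 0.25, adjusted p = 0.184, and 0.00193 over 12 arrays), at -0.87 against young arrays 1 and 2 and -0.59 against young arrays 3 and 4. Cox4i2, the lung isoform of subunit IV, had 9.70, 9.79, 9.87 and 9.91 on the aged CR arrays, 9.91, 9.91 and 9.95 on 3 aged AL arrays, and 10.36, 10.55 and 10.10 on 3 young arrays, a difference of -0.46 (SE 0.19). The aged arrays all lay below the young ones in Uqcrb and Cox4i2. Sdhc, a membrane anchor of complex II, stood at -0.44 (SE 0.23), with 12.20 to 12.31 on the aged CR arrays and 12.44, 12.45, 12.90 and 12.99 on the young arrays. Ndufb2, an accessory complex I subunit, stood at -0.40 (SE 0.28), with overlapping arrays. Without scaling between arrays Ndufb2 stood at 0.04, where the median of all probes was 0.49.

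The 3 subunits of complex II measured here were 1 catalytic subunit and both anchors. Sdhb, the iron-sulfur subunit, varied little, with 14.06 to 14.27 on the aged CR arrays, 14.15 to 14.29 on the aged AL arrays and 14.13 to 14.29 on the young arrays. Its difference between aged AL and young kidney was -0.01 (SE 0.20), and -0.65 under array median scaling. Sdhc stood at -0.41 in aged AL against young kidney (SE 0.28), while Sdhd, the other anchor, stood at -0.02 (SE 0.25), and differences between these subunits were not tested. With array median scaling Sdhc was at -0.96 and Sdhd at -0.54, and Sdhb, Sdhc and Sdhd were all called lower over 12 arrays. Cyc1, the cytochrome c1 of complex III, had 12.48 to 12.69 on the aged CR arrays, 12.50 to 12.73 on the aged AL arrays and 12.75 to 13.18 on the young arrays. Cyc1 stood at -0.31 in aged AL against young kidney (SE 0.23) and at -0.35 in aged CR against young kidney (SE 0.19), and both passed over 12 arrays only.

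The common isoforms of complex IV other than Cox4i1 stood closer together. Cox6a1, the subunit VIa of most tissues, had 14.34 to 14.51 on the aged CR arrays, 14.26 to 14.35 on the aged AL arrays and 14.57 to 14.73 on the young arrays, with aged AL at -0.31 against young (SE 0.20). Its muscle counterpart Cox6a2 had 6.63 to 6.86 on the aged CR arrays, 6.91 to 6.97 on the aged AL arrays, and 6.79, 7.08, 6.15 and 6.22 on the young arrays, so that here young arrays 3 and 4 were the low ones. Cox8a, the common partner of Cox8b, stood at -0.22 in aged AL against young kidney (SE 0.21), and a second probe of it stood at -0.49 (SE 0.20). Cox7a2 stood at 0.04 (SE 0.28), made up of 0.29 against young arrays 1 and 2 and -0.21 against young arrays 3 and 4. Under array median scaling Cox7a2 stood at -0.54. The second probe of Cox8a read 7.17 to 7.45 on the aged CR arrays, 6.35 to 6.81 on the aged AL arrays and 6.99 to 7.20 on the young arrays, a difference between the diets of 0.69 (SE 0.20, adjusted p = 0.854, and 0.00189 over 12 arrays), where its brighter probe gave 0.16.

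The scaling between arrays decided how the subunits as a group compared with young kidney. Quantile normalisation gives all arrays the same distribution of values. Array median scaling, the software's own, divides each array by its median and leaves bright probes free to shift. Under it the median member stood at -0.60 in aged AL against young kidney, with 59 of 66 below 0, against -0.08 and 41 under quantile normalisation. The median over all probes moved to -0.21 as well, which leaves the members 0.39 below it. In aged CR against young kidney the members' median was -0.81, with 59 of 66 below 0, and that of all probes -0.24. Between the diets the members' median was -0.21, and that of all probes -0.06.

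Counts moved with it. Under array median scaling and 12 arrays, 51 members were lower and 1 higher in aged AL than in young kidney (77.3% and 1.52%), against 37.4% lower and 15.7% higher of all probes. For aged CR against young kidney 53 were lower and 1 higher, against 40.7% and 13.7% of all probes, and between the diets 6 were lower and 0 higher, against 5% and 3.98%. Over 5 samples none passed under array median scaling in any of the 3 comparisons. The sign of the difference turned between the 2 scalings for 18 members in aged AL against young, for 15 between the diets and for 19 in aged CR against young, and no member was called in opposite directions by the 12-array fits.

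Other scalings fell on either side. Cyclic loess gave medians of -0.03 for aged AL against young, -0.02 between the diets and 0.01 for aged CR against young. Scaling to the 75th percentile gave -0.37, -0.17 and -0.54 in that order, and no scaling gave -0.15, 0.07 and -0.08 where all probes stood at 0.24, 0.23 and 0.49. With array median scaling, 75th percentile scaling and no scaling the members lay 0.39 below the median probe in aged AL against young kidney, and 0.57 below it in aged CR against young kidney.

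**Figure D4:**
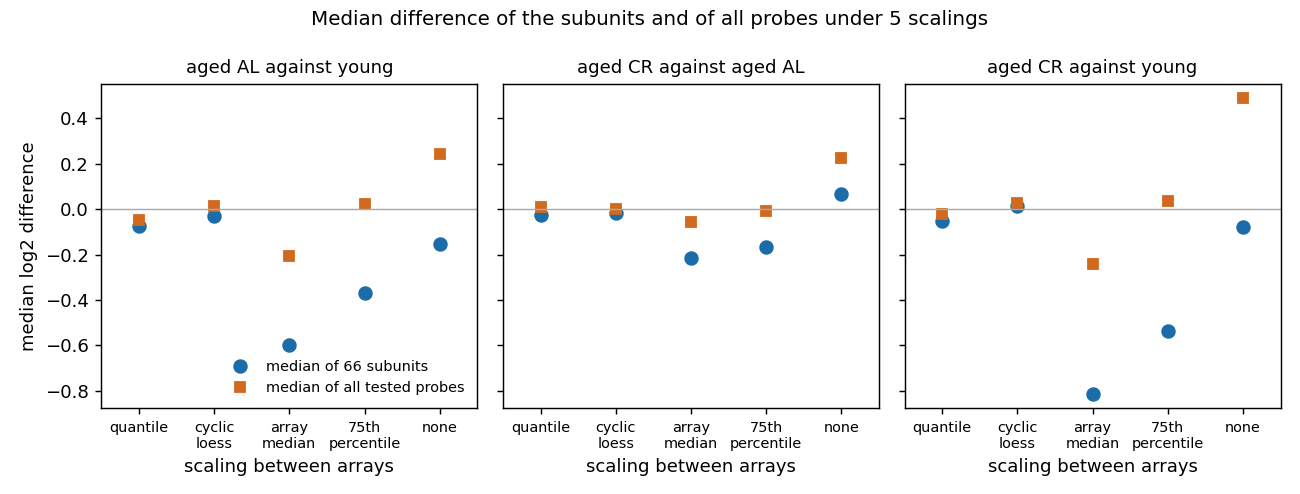
Median log2 difference of the 66 subunit transcripts (circles) and of all probes tested (squares) in the 3 comparisons under 5 scalings between arrays. Under quantile normalisation and cyclic loess both lie near 0. Under the other 3 scalings the subunits lie below the other probes in each comparison, and below 0 except between the diets without scaling, where they stand at 0.07. These 3 scalings move all probes of an array equally, so the gap between circle and square is nearly the same in them by construction.

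The shift under array median scaling followed brightness over all probes. In the brightest 10%, 2540 probes of which 50 are members, the median difference between aged AL and young kidney was -0.52 under array median scaling and -0.01 under quantile normalisation. In aged CR against young kidney it was -0.69 and 0.01. In the dimmest 10% the values in aged AL against young kidney were 0.15 and 0.07. The subunits' medians of -0.60 and -0.81 under array median scaling thus stand beside -0.52 and -0.69 for the bin that holds 50 of them. That bin spans mean levels of 11.41 to 15.06 and was not matched to the subunits' levels within it. Whether bright transcripts as a class changed with age or the arrays read them differently was not tested.

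**Figure D5:**
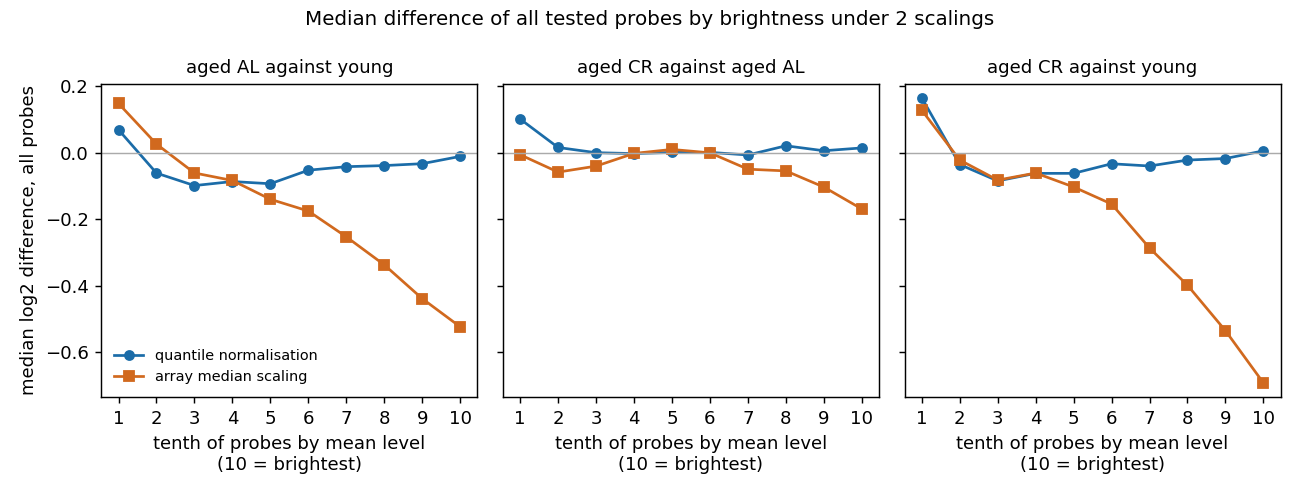
Median log2 difference over all tested probes, in 10 equal bins ordered by mean level, under quantile normalisation (circles) and array median scaling (squares). In both comparisons with young kidney the array median line falls toward the brightest bin, to -0.52 and -0.69, while the quantile line ends near 0. Of the 66 subunits, 50 are in that brightest bin.

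Other genes of the mitochondrion were counted by list, and no member of any of these lists passed over 5 samples in the 3 comparisons. The list counts over 12 arrays stand against the shares of all probes given above, 20.9% higher and 27.1% lower in aged AL against young, 7.39% and 5.98% between the diets, and 19.7% and 24.6% in aged CR against young kidney. Of 38 assembly factors tested, 4 were higher and 21 lower in aged AL than in young kidney over 12 arrays, with a median of -0.30. In aged CR against young kidney 0 were higher and 21 lower, with a median of -0.28. The mitochondrial ribosome had 7 of 62 higher and 20 lower in aged AL against young kidney, with a median of -0.10, and 4 higher and 23 lower in aged CR against young kidney, with a median of -0.13. Under array median scaling the medians in aged AL against young kidney were -0.62 for assembly factors and -0.55 for the ribosome, beside -0.60 for the subunits. No probe named a mitochondrially encoded subunit.

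The smaller lists were mixed. Of 18 citrate cycle genes 3 were higher and 3 lower in aged AL than in young kidney over 12 arrays, and 1 was higher and 7 lower in aged CR than in young kidney. Electron carriers and entry points had 3 of 18 higher and 3 lower in aged AL, and 1 and 5 in aged CR, against young kidney. Transcription factors and coactivators of mitochondrial genes had 6 of 18 higher and 6 lower in aged AL, and 1 and 6 in aged CR, against young kidney. Their median in aged AL against young kidney was 0.06, and -0.32 under array median scaling. Of 6 uncoupling, inhibitor and supercomplex factors 3 were higher and 2 lower in aged AL, and 2 and 2 in aged CR, against young kidney. Between the diets over 12 arrays, 1 assembly factor was higher and 4 lower, 2 ribosomal genes higher and 3 lower, 1 carrier and 2 transcription factors lower, and 0 genes of the other lists called.

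Leukocyte markers moved with age in the same arrays. Summed over 7 of 8, they reached 11420 to 12204 intensity units in aged CR kidney, 13442 to 14800 in aged AL kidney and 3256 to 3746 in young kidney. Cd79b, a B cell receptor chain, rose by 2.60 in aged CR against young kidney (SE 0.16, adjusted p = 0.0279 over 5 samples), Ptprc, the common leukocyte phosphatase, by 2.06 (adjusted p = 0.0353), and C1qb, a complement chain made by macrophages, by 1.75 (adjusted p = 0.0433), all 3 named after their values were seen. These 3 were the only ones of the 8 leukocyte markers that passed over 5 samples, where 0.89% of all probes did. Over 12 arrays 7 of the 8 were higher and 1 lower in aged CR against young kidney, the lowest at -0.28. The shares of all probes there were 19.7% higher and 24.6% lower. With array median scaling 2 of the 8 leukocyte markers passed over 5 samples. The median of the 8 leukocyte markers was 1.76 in aged AL against young kidney and 1.53 in aged CR against young kidney. Fibroblast markers summed, over 4 of 6, to 5023 to 5850 units in aged CR kidney, 6480 to 7313 in aged AL kidney and 2435 to 3309 in young kidney. Their part in the subunit differences was not tested.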

How the data were processed

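Biotin-labelled kidney RNA was hybridised to 12 CodeLink Rat Whole Genome arrays. The authors deposited, per array and probe, a background-subtracted intensity with spot flags and a normalised ratio, which is that intensity divided by the array median, per the file headers, made with CodeLink Expression Analysis 4.1.0.29054 with a trim of 20%. Intensities of 33849 gene probes were quantile-normalised, floored at the negative control level (7.69, from 256 spots per array) and put on a log2 scale. Probes above background on at least 4 arrays with at least 2 values per group were tested (25398, 75.0%). Arrays of a group whose bright probes differed no more than repeat spots (one-sided 95% limit) were averaged into 1 sample. R 4.3.3 and limma 3.58.1 gave two-sided tests with Benjamini-Hochberg adjustment over all tested probes, in fits over 5 samples (main) and over 12 arrays. Intensities carry no read depth, and the number of samples limits precision. Replicate numbers did not pair arrays across groups. Members with the 5 highest and 5 lowest differences in each comparison, and complex II, Cyc1 and tissue isoforms, were named. Members, lists and this rule were chosen with earlier results of these data known. Alternatives covered the scaling, floor, filter, offset, blocks and left-out arrays. The test was tried on data simulated for aged AL against young kidney only, where the fit over 5 samples estimated the changes but did not call them.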

Additional observations from a re-analysis of the deposited data

Results flagged for a closer look

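Sdhd, a membrane anchor of complex II, had 1 array that stood apart within its group. On aged CR array 3 its level was 11.90, while the other 3 aged CR arrays read 11.80 to 11.81, so that the gap took 0.963 of the group's range; this is above Dixon's critical value for 4 arrays. The gap is small on the log2 scale. It was the only one among 78 groups of 4 arrays examined, and chance gives about 1 in 20.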

How the results depend on the processing

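The counts, 0 in each comparison over 5 samples, moved both with arrays counted separately and with the scaling. For aged AL against young kidney 24 members were called over 12 arrays, 20 with the replicate block and 52 under array median scaling. There were 46 under 75th percentile scaling, 21 under cyclic loess and 44 with the slide series as a random block. That block had an estimated correlation of -0.15, and no series held both aged AL and young arrays, so its count cannot separate series from age. Of all probes, 20.9% were higher and 27.1% lower over 12 arrays, and 15.7% and 37.4% under array median scaling. Shares of all probes for the other fits are not given in any comparison, so those counts say nothing particular to the subunits. Leaving out arrays gave 0 to 13, with 3 without young arrays 1 and 2 and 13 without young arrays 3 and 4. Between the diets the counts were 5, 1, 6, 7, 4 and 6 in the same order, and 0 when arrays were left out. For aged CR against young kidney they were 19, 15, 54, 50, 15 and 20, and 1 over 5 samples with 75th percentile scaling (Cox8b), without scaling (Cox6b2) or with an offset of 50 (Cox8b). Leaving out arrays gave 0 to 16: 5 without young arrays 1 and 2, 16 without young arrays 3 and 4 and 1 without young replicate 4. The members' median in aged AL against young kidney was -0.60 under array median scaling and in the deposited ratios and -0.37 under 75th percentile scaling, and -0.11 to -0.02 with arrays left out. Between the diets it was -0.21 under array median scaling and in the deposited ratios. In aged CR against young kidney it was -0.81 under array median scaling (-0.82 over 12 arrays), -0.81 in the deposited ratios and -0.54 under 75th percentile scaling, and -0.16 to -0.02 with arrays left out. Ndufb2 stood at 0.044 in aged CR against young kidney without scaling, where the median of all probes was 0.49. Without young arrays 1 and 2, and without young arrays 3 and 4, Ndufv3 stood at -0.017 and 1.09 and Atp5mc2 at -0.10 and 1.32 in aged AL against young kidney, and Atp5pb at -0.27 and 1.44 and Atp5f1d at -0.035 and 1.27 in aged CR against young kidney. The scaled fits over 12 arrays were chosen after seeing the data. Deviations of arrays with the same replicate number correlated at -0.18 to 0.15, so the numbers pair no arrays. The causes were not tested. Counting the aged AL arrays as 1 sample, from their likeness, limits the comparisons that use them. The 2 young samples limit both comparisons with young kidney, and their spread enters every SE. Saturation limits Atp5f1b.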
